A study of Mus musculus with 17 samples.

Results

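Kinesins are the motor proteins that walk along microtubules, and tubulins are the subunits from which microtubules are built. Of the 23719 genes of the deposited counts, 63 carried a kinesin, kinesin light chain, kinesin-associated protein or tubulin symbol: 46 kinesins, light chains and Kifap3, and 17 tubulins. The members were taken by symbol alone, and the family was chosen by the high level of Kif21b in the exposed animals, so the difference of Kif21b between the groups is given as a description with no test. Colons of male C57BL/6 mice aged 32 to 34 weeks were compared at day 30. The GWI group, a model of Gulf War illness, had received pyridostigmine bromide, a cholinesterase inhibitor, at 2 mg/kg in drinking water for 7 days and then recovered without it for 21 days, while the Control group had water. RNA came from colon explants whose layers are not stated, from 9 Control and 8 GWI samples. The labels number them as tissue replicates and do not tie each to its own mouse, so p-values measure the spread between these samples, which may be technical.

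Mitotic kinesins build the spindle, move chromosomes and finish cytokinesis, so their transcripts are carried mainly by dividing cells, which in the colon lie at the crypt base. Transport kinesins carry vesicles, mitochondria and mRNA along microtubules, and several of them, with Tubb3, are largely neuronal, which in the gut wall places them in the enteric nervous system. Light chains link the Kif5 motors to cargo, and Kifap3 (KAP3) joins Kif3a and Kif3b into the kinesin-2 motor that also serves cilia.

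Total counts ran from 16293537 to 20741212 per sample, with a median of 17761682. Levels are given as CPM, counts scaled to the size of each library, and a gene was called where edgeR's quasi-likelihood test gave an adjusted p under 0.05 over 14146 tested genes. Of the 63 members 55 were abundant enough to be tested. The 8 untested members were Kif17, Kif6, Kif28, Kif2b, Tuba3a, Tuba3b, Tuba8 and Tubb1, and 4 of these never exceeded 1 count in any sample.

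Several Control samples stood apart. In Control 9 the 10 most abundant genes took 23.1% of all counts, against 9.72% to 17.3% in the other Control samples and 10.96% to 12.8% in the GWI samples. The summed CPM of 12 enteric neuron markers was 95.3, 122 and 118 in Control 7, Control 8 and Control 9, and lay between 268 and 570 in the other 6 Control samples. GWI samples ran from 116 to 384, overlapping both of these ranges. The summed CPM of 10 smooth muscle markers was also lowest among Control samples in these 3, at 6790, 4702 and 3690, against 11188 to 23923 in Control 1 to Control 6 and 3658 to 11832 in the GWI group. Control 1 had the highest neuron marker sum and the lowest sum over mitotic motors of all 17 samples. For several single members that rest on these samples, differences are given with and without them. Marker calls, sums and shares are given with all samples only.

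Markers of the other cells in the wall differed between the groups as well. Of the smooth muscle markers 7 of 10 fell in GWI and the remaining 3 were not called; the most abundant, Myh11, averaged 2962 CPM in Control and 1379 in GWI. All 12 neuron markers had negative differences, 1 of them called, with Uchl1 the most abundant at 49.4 and 31.9 CPM. Of the colon epithelium markers 5 of 11 rose and none fell by the same test, and 7 of 11 had an unadjusted p under 0.05; their sum ran from 28054 to 45858 CPM in Control and from 32539 to 50430 in GWI, with Car1 the most abundant in Control and level with Muc2 in GWI (11963 and 11981 CPM). In bulk tissue, fewer cells of a type and less RNA per cell cannot be told apart. A covariate fit was used to show how far member differences moved when this makeup was added to the model. Its covariate was a muscle score, the mean log2 CPM of the smooth muscle markers minus that of the epithelium markers. The score itself nearly separated the groups. It ran from -1.396 to 0.160 in Control 1 to Control 7 and from -2.916 to -1.402 in GWI. Only Control 8 (-2.209) and Control 9 (-2.333) lay in the GWI range. The fit therefore cannot separate group from makeup, and its signs and calls are given as a description.

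The glia list had 3 markers lower and 1 higher among 8 tested; the most abundant, Erbb3, averaged 210 CPM in Control and 395 in GWI. The sum of the glia list ran from 203 to 432 CPM in Control and from 397 to 521 in GWI, and Fabp7 was too low to test. Erbb3 alone made up most of that sum, which averaged 300 CPM in Control and 451 in GWI. Of the 8 tested glia markers 6 had negative differences and 2 positive ones, with a median log2 difference of -0.86. The sum therefore does not stand for the list as a whole. Endothelial markers were lower for 3 of 5, with sums of 37.4 to 165 CPM in Control and 40.6 to 89.2 in GWI and Pecam1 the most abundant. Adipocyte markers (sums 33.5 to 208 and 68.6 to 570 CPM, led by Fabp4) had 1 of 5 higher. Interstitial cell of Cajal markers, led by Kit, had 0 of 3 called, with 1 of 3 at an unadjusted p under 0.05 and sums of 117 to 220 CPM in Control and 105 to 224 in GWI. Lymphocyte markers had 0 of 6 tested called and 0 at that unadjusted level, with Ptprc the most abundant and sums of 13.5 to 31.1 and 14.6 to 26.8 CPM. Platelet and megakaryocyte markers, led by Gp1bb, likewise had 0 of 3 tested called and 0 at the unadjusted level, with sums of 7.74 to 20.7 and 10.5 to 19.1 CPM. Small intestine markers had 3 of 8 tested lower; their sum was 2648 CPM in Control 7, 3087 in Control 9 and no more than 1748 in any other sample, with Fabp2 leading. Skeletal muscle markers, led by Ckm, had 1 of 3 tested lower, with sums of 15.1 to 78.4 and 17.4 to 50.4 CPM. The part of any of these cell types in the member differences was not tested, and the muscle score fit cannot separate it from group.

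Among the 54 tested members other than Kif21b, 6 were higher in GWI, where 13.4% of all tested genes were higher. Another 5 were lower, where 13.5% of all tested genes were lower. Together these were 11 of 54 members, or 20.4%, beside 26.8% of all tested genes. Since the family was selected on this contrast, nothing is read from those shares. The higher members were Kif27, Kifc2, Kif16b, Kif13b, Kifc3 and Kif3b, and the lower members were Klc3, Kif7, Kif5b, Kifap3 and Tubb6. The groups did not overlap in any sample for 1 of the 54, Kif27, beside 2.35% of all tested genes. The median log2 difference was -0.17 over the 54 members and -0.06 over all tested genes.

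**Figure D1:**
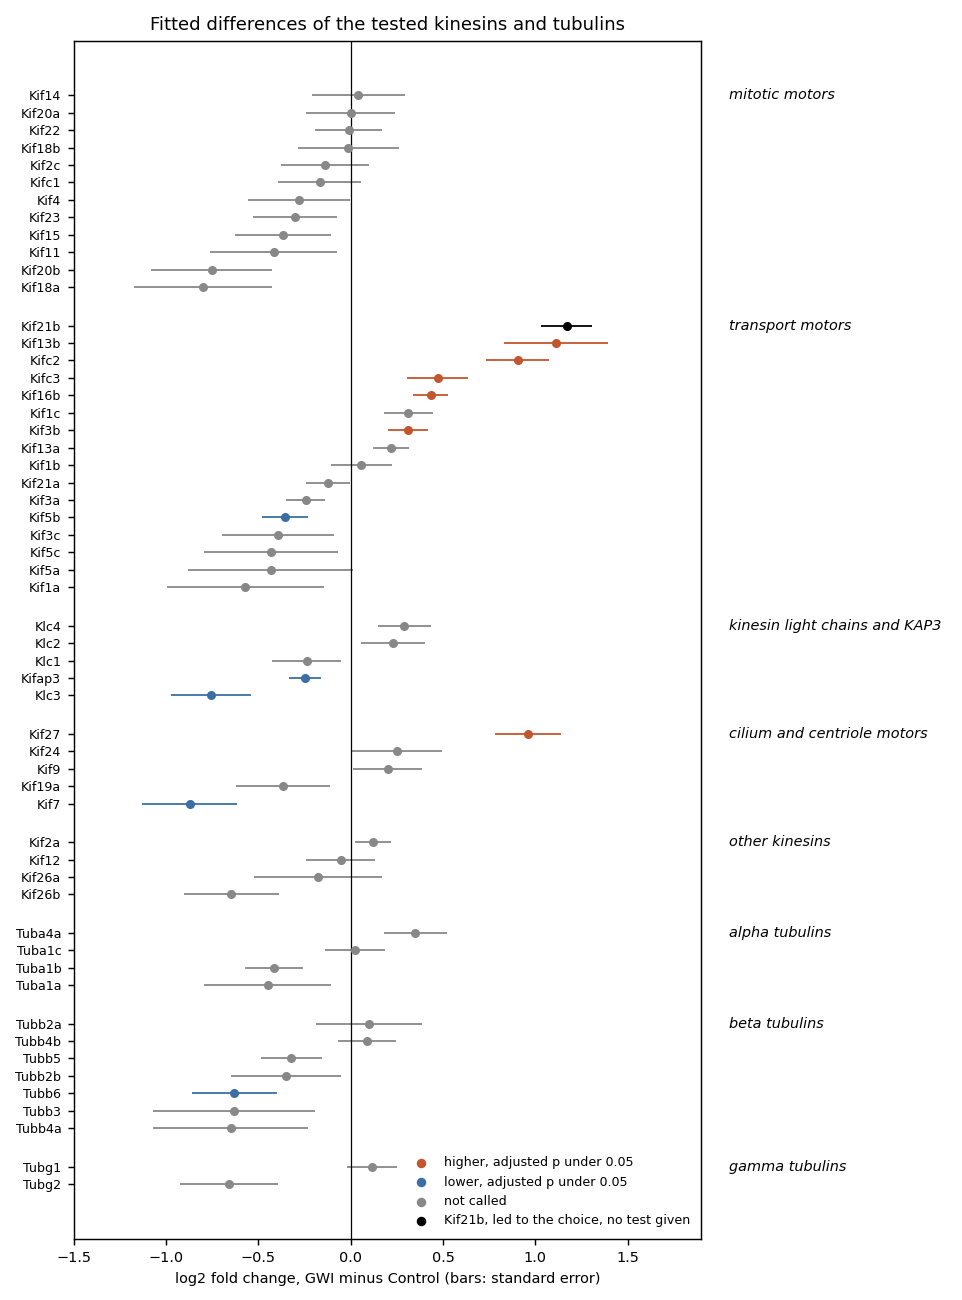
Fitted log2 fold change of each tested member, GWI minus Control, grouped by role along the vertical axis, with bars for the standard error. Called members are coloured and Kif21b is black; transport motors spread from -0.57 to 1.17, and mitotic motors lie between -0.80 and 0.04.

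Kif21b (ENSMUSG00000041642.18, chr1:136131389-136177998, plus strand) encodes a kinesin-4 motor that moves to microtubule plus ends and restrains their growth, best known from neurons and lymphocytes. Its level in the Control samples ran from 17.5 to 39.5 CPM with a median of 20.9, and in the GWI samples from 43.6 to 61.2 CPM with a median of 50.4. Every GWI sample lay above every Control sample, and the nearest Control sample was Control 1, with the next at 24.98 CPM. The fitted log2 difference was 1.17 with a standard error of 0.14, and 1.31 without Control 1. With the muscle score as a covariate it was 1.25, and it was 1.09 without Control 7, Control 8 and Control 9.

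Its closest relative, Kif21a, did not share that pattern. Kif21a ran from 57.8 to 105 CPM in Control with a median of 75.3, and from 68.8 to 87.7 CPM in GWI with a median of 72.2. The GWI samples lay inside the Control range, and the log2 difference was -0.12 (SE 0.12, adjusted p = 0.447). Per kilobase of exon, Kif21b made up 13.2% ± 3.24 (SD, n = 9) of the Kif21 pair in Control and 26.7% ± 2.89 (SD, n = 8) in GWI, so Kif21a remained the more abundant of the pair in both groups. Leaving out Control 7, Control 8 and Control 9 gave Kif21a a log2 difference of -0.30 with an adjusted p of 0.0143, where the 10 other settings tried gave 0.0143 to 0.481.

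Among the other transport motors, 5 of 15 tested rose and 1 fell, beside 13.4% of all tested genes higher and 13.5% lower; nothing is read from the count. Kif13b (chr14:64647265-64809617), a kinesin-3 motor that carries scaffold proteins and signalling lipids, had the largest difference among these 15. Its Control samples ran from 13.4 to 74.2 CPM with a median of 20.7, and its GWI samples from 37.3 to 71.3 CPM with a median of 55.7. Apart from Control 1, which was higher than every GWI sample, no Control sample exceeded 24.3 CPM and the groups were separate. The log2 fold change was 1.11 (SE 0.28, adjusted p = 0.00974), and without Control 1 it was 1.51 (adjusted p = 1.18e-05). Adjusted p over the 10 other settings ran from 1.03e-05 to 0.0347.

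Kifc2 (chr15:76659858-76668196) encodes a kinesin with a C-terminal motor, a class that moves toward minus ends. Kifc2 ran from 6.60 to 13.1 CPM in Control with a median of 9.00, and from 10.9 to 23.7 CPM in GWI with a median of 15.98. Of the 8 GWI samples 7 lay above all Control samples, GWI 1 being the exception, and the highest Control samples were Control 1 and Control 9. Kifc2 rose with a log2 fold change of 0.90 (SE 0.17, adjusted p = 0.00182). Kifc2 overlaps exons of Cyhr1 on the opposite strand, and the strand setting of the counting is not stated, so part of its count may belong to that gene.

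Kif16b, a kinesin-3 motor that binds early endosomes, ran from 44.3 to 66.5 CPM in Control (median 47.5) and from 54.6 to 80.3 CPM in GWI (median 65.3). Only Control 1 and Control 9 reached the GWI range. Its log2 fold change was 0.43 (SE 0.09, adjusted p = 0.00459). The covariate fit gave 0.31 with an adjusted p of 0.0686, the highest of the 10 other settings, which began at 0.000262.

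Kifc3, a minus-end motor found at the junctions and apical side of epithelial cells, ran from 13.8 to 44.1 CPM in Control (median 22.3) and from 28.5 to 37.1 CPM in GWI (median 34.4). The GWI samples were close together, and Control 1 lay above all of them. Kifc3 rose by a log2 fold change of 0.47 (SE 0.17, adjusted p = 0.0417), and by 0.63 without Control 1 (adjusted p = 0.0015). Without Control 7, Control 8 and Control 9 it was 0.30 and not called (adjusted p = 0.134). The 10 other settings gave adjusted p from 0.000558 to 0.134. The call was lost in 13 of the 17 fits that left out 1 sample, with adjusted p up to 0.0745 without GWI 7. Kifc3 overlaps exons of Gm31224 and Gm45812 on the opposite strand.

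Kif3b, a subunit of kinesin-2, ran from 34.5 to 61.3 CPM in Control (median 40.0) and from 44.1 to 61.5 CPM in GWI (median 55.5). Control 1 was near the top of both groups, and GWI 8 was the lowest GWI sample. Kif3b rose by 0.31 (SE 0.11, adjusted p = 0.0430), and the call was lost in 13 of 17 fits that left out 1 sample (adjusted p up to 0.0833, without GWI 4). It was 0.16 with an adjusted p of 0.379 in the fit with the muscle score, where the 10 other settings began at 0.00252. Its partner Kif3a had a log2 difference of -0.25 (SE 0.11, adjusted p = 0.0909), with 2 of 8 GWI samples below all Control samples. Kif3a was called lower without Control 7, Control 8 and Control 9, at -0.35 (adjusted p = 0.0127), and was at -0.04 (adjusted p = 0.814) in the covariate fit.

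**Figure D2:**
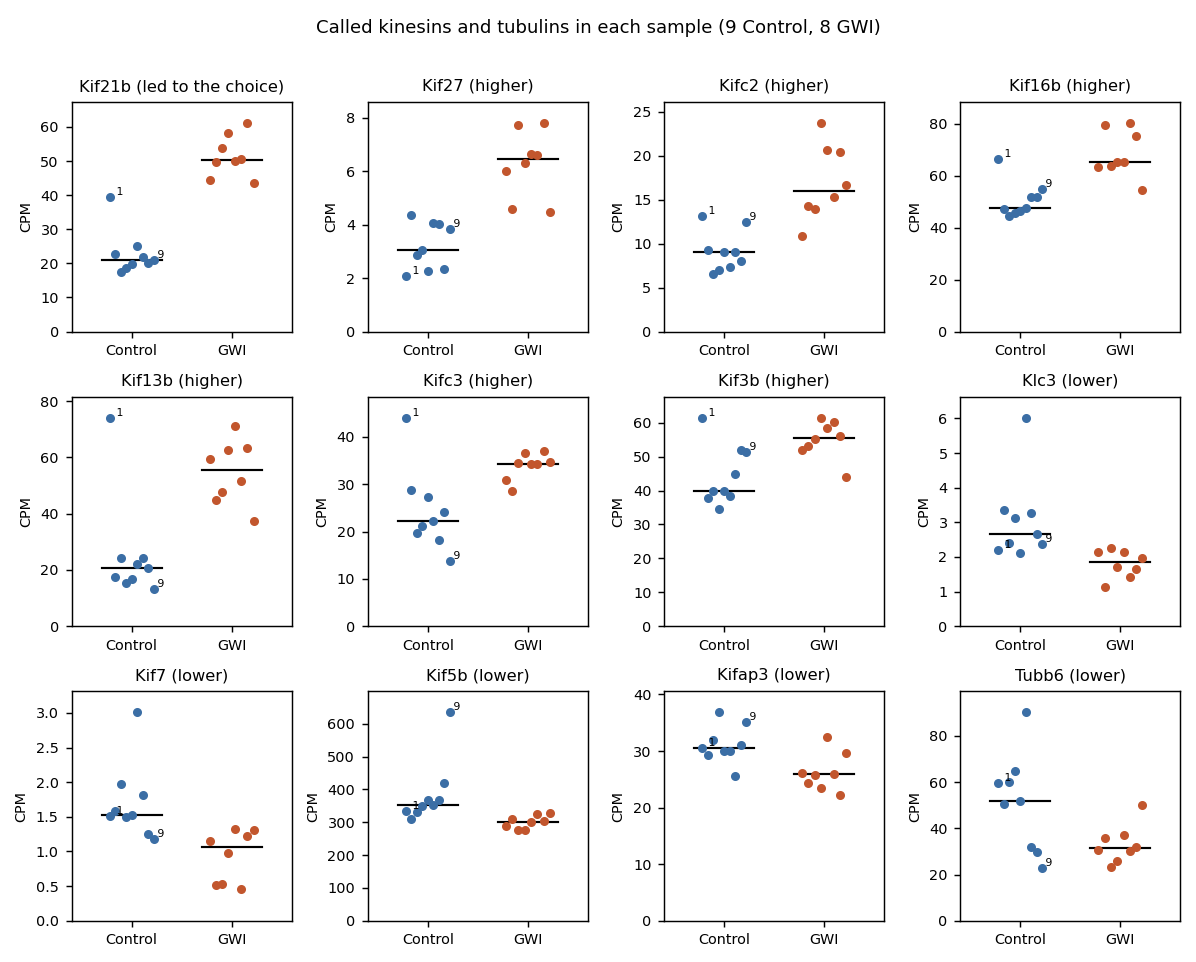
CPM of Kif21b and the 11 called members in each sample, Control in blue and GWI in orange, with the group median as a line; Control 1 and Control 9 are marked 1 and 9. The groups are fully separate for Kif21b and Kif27, and Control 1 lies above every GWI sample for Kif13b and Kifc3.

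Kif5b, the widely expressed heavy chain of kinesin-1, was the transport motor that fell. It ran from 309 to 635 CPM in Control with a median of 354, and from 276 to 329 CPM in GWI with a median of 302. Of the GWI samples 5 lay below all Control samples, and Control 9 lay far above the rest, with the next Control sample at 418 CPM. The log2 fold change was -0.36 (SE 0.12, adjusted p = 0.0405); without Control 9 it was -0.23 (adjusted p = 0.0253). The call was lost in 8 of 17 fits that left out 1 sample, with adjusted p up to 0.0768 without GWI 3, and the 10 other settings gave 0.00663 to 0.0672. Per kilobase, Kif5b made up 86.2% ± 8.96 of the 3 Kif5 heavy chains in Control (SD, n = 9) and 87.4% ± 5.26 in GWI (SD, n = 8).

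Per kilobase, the most abundant transport motor was Kif1c, at a mean of 57.7 CPM per kb over all samples, ahead of Kif5b at 43.3 CPM per kb; the next, Kif21a, was at 12.2 CPM per kb. Kif1c, a kinesin-3 motor that carries dense-core vesicles and integrins, ran from 284 to 593 CPM in Control (median 366) and from 380 to 607 CPM in GWI (median 446). Control 1 was within the upper part of the GWI range and the next Control sample was at 412 CPM. The log2 difference was 0.31 (SE 0.13, adjusted p = 0.0839), which was not called. Without Control 1 it was 0.42 with an adjusted p of 0.00521, and the covariate fit gave 0.59 with an adjusted p of 0.0101. Without Control 7, Control 8 and Control 9 it was 0.17 with an adjusted p of 0.326. The 10 other settings ran from 0.0039 to 0.326.

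The transport motors known mainly from neurons were low in the same 3 Control samples as the neuron marker sum. Kif1a, which carries synaptic vesicle precursors, was at 12.5, 12.1 and 8.92 CPM in Control 7, Control 8 and Control 9, and between 39.1 and 87.3 CPM in the other Control samples. GWI samples lay from 14.9 to 62.3 CPM. Kif5a showed the same split, at 6.62, 10.3 and 8.85 CPM in those 3 samples against 26.7 to 74.7 in the other Control samples. None of Kif1a, Kif5a, Kif5c and Kif3c was called with all 17 samples, with log2 differences of -0.57, -0.43, -0.43 and -0.40. Without Control 7, Control 8 and Control 9, an exclusion chosen after seeing the data, all 4 were called lower by edgeR, beside 3105 of 14231 genes. Their log2 differences were then -1.05, -0.92, -0.85 and -0.78 (adjusted p = 0.00985, 0.0339, 0.0265 and 0.0118). All 4 turned sign in the fit with the muscle score, to 1.06, 1.05, 0.66 and 0.71 (adjusted p = 0.0665, 0.140, 0.214 and 0.0387), where only Kif3c was called.

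**Figure D3:**
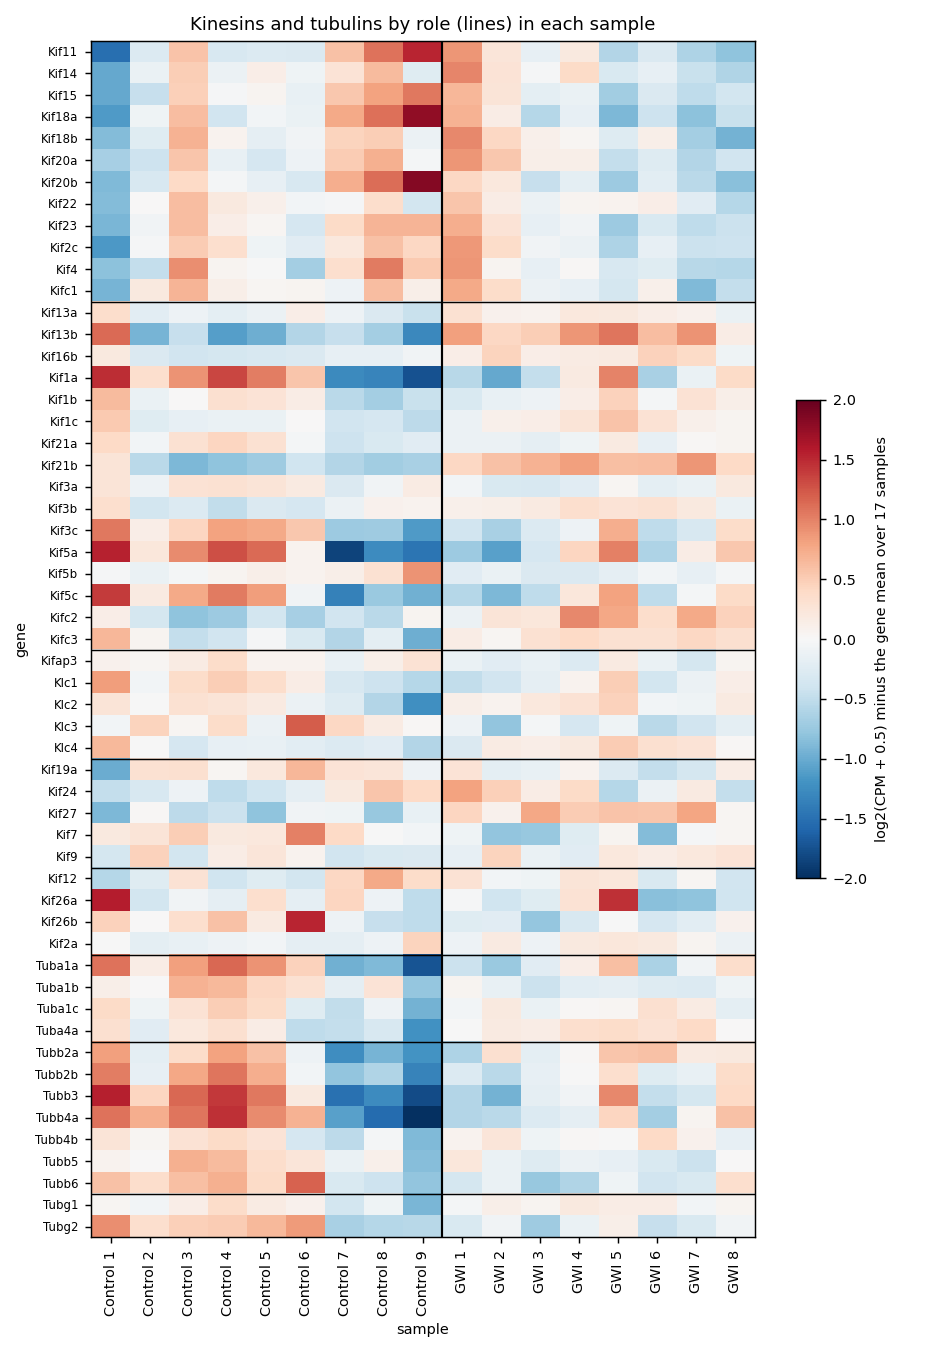
Each tested member (rows, grouped by role) in each sample (columns), as log2(CPM + 0.5) minus the gene's mean over the 17 samples. Kif1a, Kif5a, Kif5c, Tubb3 and Tubb4a are low in Control 7 to Control 9, and mitotic motors are low in Control 1.

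Among the cargo-linking subunits, 2 of 5 fell and none rose, beside 13.5% of all tested genes lower; by edgeR, 2 of 5 also had an unadjusted p under 0.05. Klc3, a light chain with a low level here, ran from 2.11 to 6.02 CPM in Control (median 2.65) and from 1.13 to 2.25 CPM in GWI (median 1.84). Of the GWI samples 5 lay below all Control samples, and Control 6 was the highest Control sample. Klc3 fell with a log2 fold change of -0.76 (SE 0.22, adjusted p = 0.0169), on 20 to 136 counts per sample, and -0.57 without Control 6. In the covariate fit it was -0.34 with an adjusted p of 0.313, and the 10 other settings began at 0.00541. Klc3 overlaps exons of Ercc2 on the opposite strand.

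Kifap3, which holds kinesin-2 to its cargo, ran from 25.7 to 36.9 CPM in Control (median 30.5) and from 22.2 to 32.5 CPM in GWI (median 25.9). The groups overlapped, with 3 GWI samples below all Control samples. Kifap3 fell by a log2 fold change of -0.25 (SE 0.09, adjusted p = 0.0458), and the call was lost in 12 of 17 fits that left out 1 sample, with adjusted p up to 0.0967 without GWI 7. The covariate fit gave -0.17 (adjusted p = 0.267), the highest adjusted p of 10 other settings, which began at 0.0191.

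The most abundant light chain per kilobase was Klc4, at a mean of 60.7 CPM per kb. Klc4 ran from 93.2 to 220 CPM in Control (median 121) and from 115 to 201 CPM in GWI (median 159), and Control 1 was above every GWI sample. The log2 difference was 0.29 (SE 0.14, adjusted p = 0.131), and 0.43 (adjusted p = 0.00582) without Control 1. It was 0.16 (adjusted p = 0.419) without Control 7, Control 8 and Control 9. Adjusted p over the 10 other settings ran from 0.00558 to 0.419. Klc4 made up 61.8% ± 5.28 (SD, n = 9) of the light chains per kilobase in Control and 68.9% ± 3.74 (SD, n = 8) in GWI, while Klc1 made up 31.3% ± 4.49 and 24.4% ± 3.23. Klc1 was not called, at -0.24 (adjusted p = 0.341), and was called lower at -0.48 (adjusted p = 0.0257) without Control 7, Control 8 and Control 9. In the covariate fit its sign turned, to 0.34 (adjusted p = 0.157).

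The motors of cilia and centrioles were all low, with Kif27 the highest at 0.891 CPM per kb. Kif27, a relative of Kif7 that serves motile cilia, ran from 2.08 to 4.38 CPM in Control (median 3.06) and from 4.46 to 7.80 CPM in GWI (median 6.45). Every GWI sample lay above every Control sample, with the lowest GWI sample close to the highest Control sample. Kif27 rose with a log2 fold change of 0.96 (SE 0.18, adjusted p = 0.00177), on 33 to 144 counts per sample, and it was called in all 17 fits that left out 1 sample. The gene overlaps Gm26555 on the opposite strand and holds Mir6369.

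Kif7, which organises the ciliary tip and acts in Hedgehog signalling, ran from 1.18 to 3.01 CPM in Control (median 1.52) and from 0.459 to 1.32 CPM in GWI (median 1.06). Of the GWI samples 5 lay below all Control samples, and Control 6 was the highest. The log2 fold change was -0.87 (SE 0.26, adjusted p = 0.0193), on 8 to 68 counts per sample. In the covariate fit it was -0.25 (adjusted p = 0.492), and adjusted p in the other settings began at 0.0058. Kif7 overlaps Ticrr on the opposite strand, a replication gene, which cannot be separated from it without strand.

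The remaining kinesins held 4 tested members and 0 calls by edgeR, beside 26.8% of all tested genes, with 1 at an unadjusted p under 0.05. DESeq2 called 1 lower, beside 2444 of 14146 genes. Kif2a, which disassembles microtubule ends and was the most abundant of them per kilobase, ran from 36.3 to 57.2 CPM in Control (median 38.8) and from 38.3 to 49.0 CPM in GWI (median 45.3). Control 9 was the highest of all 17 samples, with the next Control sample at 41.6 CPM. The log2 difference was 0.12 (SE 0.10, adjusted p = 0.348), and 0.20 (adjusted p = 0.0291) without Control 9, where the 10 other settings gave 0.022 to 0.963.

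No mitotic motor was called by edgeR, 0 of 12 beside 26.8% of all tested genes, and 2 had an unadjusted p under 0.05. DESeq2 also called 0, where it called 2171 higher and 2444 lower of 14146 genes. The log2 differences were negative for 11 of 12, from -0.80 for Kif18a to 0.04 for Kif14, with a median of -0.23. Of the 11, Kif20a, Kif22 and Kif18b were at or next to 0, at 0.00, -0.01 and -0.01. The transport motors had a median of 0.14 over 16 tested members and 0.06 without Kif21b, where 8 were positive and 7 negative. Leaving out 1 sample at a time moved these medians between -0.01 (without GWI 5) and 0.23 (without Control 1), and between -0.08 and 0.16 without Kif21b. For comparison the median over all tested genes was -0.06.

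The mitotic motors varied widely within the groups. Their summed level ran from 70.6 CPM in Control 1 to 282 in Control 9, with a Control median of 146, and from 97.03 to 254 CPM in GWI with a median of 130. The high samples were Control 3, Control 7, Control 8, Control 9 and GWI 1, and the groups overlapped throughout. Kif11, the motor that pushes spindle poles apart, was the most abundant mitotic motor per kilobase (4.04 CPM per kb). Kif11 ran from 8.97 to 77.0 CPM in Control (median 21.8) and from 14.9 to 49.0 CPM in GWI (median 22.5). Its log2 difference was -0.42 (SE 0.34, adjusted p = 0.367), with adjusted p of 0.0252 to 0.84 over the 10 other settings. The difference was -0.17 without Control 9 and turned to 0.18 without Control 7, Control 8 and Control 9, and neither was called. It was -1.09 in the covariate fit.

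The number of negative mitotic motors changed with the samples kept, from 8 to 12 of 12 when 1 sample of either group was left out. It was 12 without GWI 1 (median -0.40), GWI 4 or Control 1, and 8 without Control 3, Control 8, GWI 7 or GWI 8. Without Control 7, Control 8 and Control 9, 6 of 12 were negative and the median was 0.00. Without Control 1, 12 of 12 were negative and 2 were called lower, Kif20b at -0.84 (adjusted p = 0.0384) and Kif18a at -0.90 (adjusted p = 0.0444). In that fit 2295 of 14080 genes were lower. Without Control 9 Kif20b was at -0.44 and Kif18a at -0.50, and neither was called. Without Control 7, Control 8 and Control 9 they were at -0.08 and -0.14. In the covariate fit 5 of 12 were called lower, beside 2342 of 14146 genes: Kif20b at -1.49, Kif18a at -1.47, Kif11 at -1.09, Kif15 at -0.85 and Kif23 at -0.72. Adjusted p for these 5 lay between 0.00228 and 0.0454. Among 24 proteins that work with mitotic kinesins, 20 had negative differences and 2 were called, or 8.33% beside 26.8% of all tested genes. Birc5 (survivin) fell at -0.54 (SE 0.17, adjusted p = 0.0236; not called in 3 of 27 other fits), and Numa1, a spindle pole protein also made outside mitosis, rose at 0.60 (SE 0.17, adjusted p = 0.0165). The summed level of these partners, led by Mki67 in Control (171 CPM on average) and by Numa1 in GWI (217 CPM), ran from 504 to 1294 CPM in Control and from 681 to 1292 CPM in GWI.

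**Figure D4:**
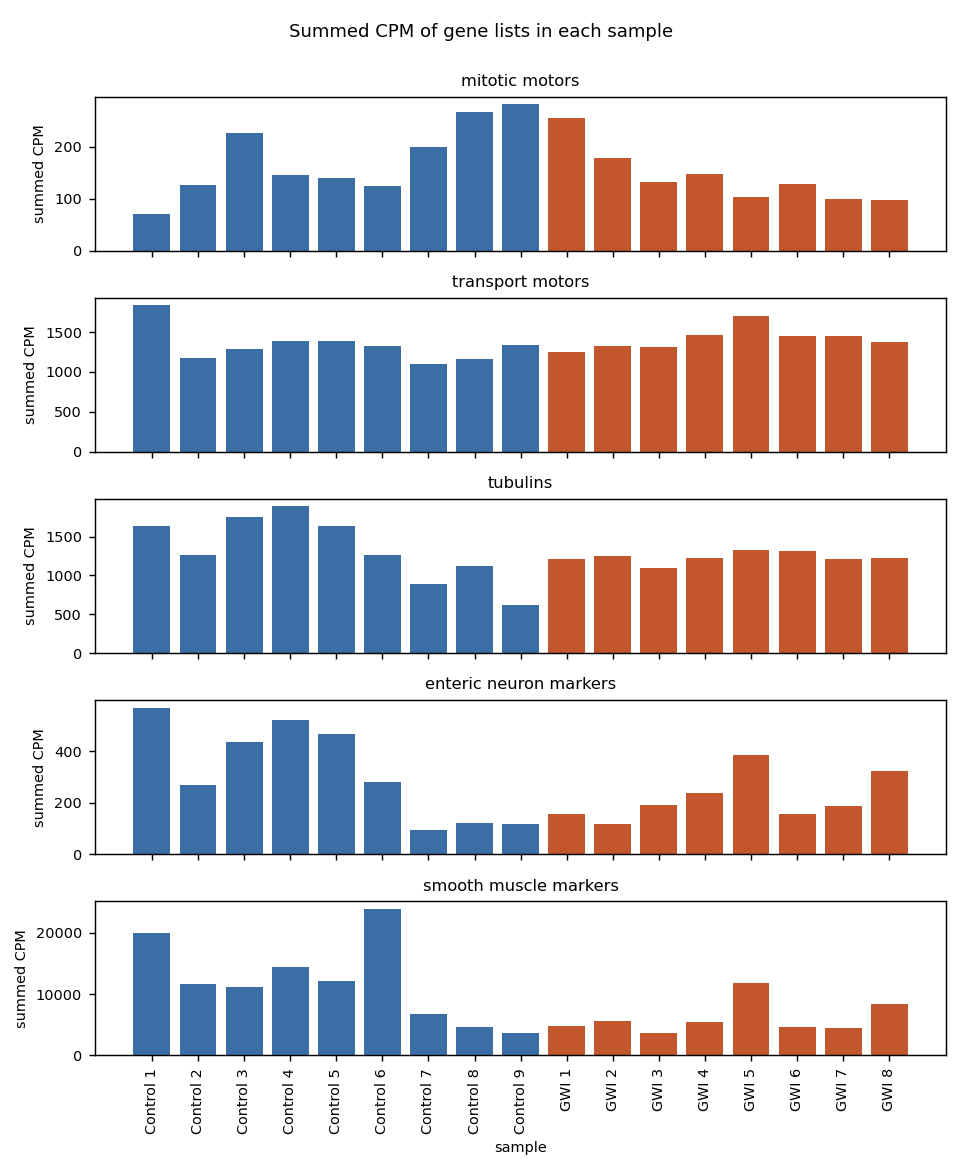
Summed CPM of mitotic motors, transport motors, tubulins, enteric neuron markers and smooth muscle markers in each sample, Control in blue and GWI in orange. Control 1 has the lowest mitotic sum (70.6 CPM) and Control 9 the highest (282 CPM); neuron and muscle sums are low in Control 7 to Control 9.

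Promoters of the mitotic motors shared a feature that the choice by symbol did not use. RefSeq promoter windows (GRCm38.p6, 250 bases before to 50 bases after the gene start) were matched for 50 of 63 members, among them 11 of 12 mitotic and 11 of 17 transport motors. The letters TTTGAA, the core of the cell cycle genes homology region (CHR) at which repressor complexes sit on cell cycle genes, were searched on both strands (TTCAAA on the other). They were present in 10 of the 11 mitotic motors, in 1 of the 11 transport motors, and in 5 of the 39 members that are not mitotic motors. Of all 32851 windows 17.9% held them, or 20.2% of 27025 genes. In 8 of the 10 the nearest match began between 19 bases before and 19 bases after the gene start. A CCAAT box, CCAAT or ATTGG, was present in 7 of the 11 mitotic motors, in 19 of the 39 other members, and in 37.4% of all windows, or 41.1% of genes. These are letter matches in the reference and not measured binding. The 6 windows with a CCAAT box and with the CHR letters near the start are shown because they hold both motifs, and capitals mark the letters of either motif on either strand. The window of Kif11 is chr19:37376132-37376431 on the plus strand, Kif18b at chr11:102925075-102925374 on the minus strand, Kif22 at chr7:127042371-127042670 on the minus strand, Kif23 at chr9:61946750-61947049 on the minus strand, Kif4 at chrX:100625815-100626114 on the plus strand and Kifc1 at chr17:33890584-33890883 on the minus strand.
Kif11: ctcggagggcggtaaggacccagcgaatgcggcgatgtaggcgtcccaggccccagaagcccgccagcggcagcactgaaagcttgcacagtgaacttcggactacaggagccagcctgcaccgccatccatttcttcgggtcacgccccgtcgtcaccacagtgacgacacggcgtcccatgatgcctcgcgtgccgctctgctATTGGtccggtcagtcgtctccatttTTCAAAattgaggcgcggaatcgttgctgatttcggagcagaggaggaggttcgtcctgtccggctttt
Kif18b: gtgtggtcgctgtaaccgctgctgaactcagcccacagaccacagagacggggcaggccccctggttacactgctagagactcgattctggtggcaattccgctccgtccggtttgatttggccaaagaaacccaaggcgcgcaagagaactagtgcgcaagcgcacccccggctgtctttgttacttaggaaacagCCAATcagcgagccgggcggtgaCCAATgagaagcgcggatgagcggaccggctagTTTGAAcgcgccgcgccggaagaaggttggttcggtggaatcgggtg
Kif22: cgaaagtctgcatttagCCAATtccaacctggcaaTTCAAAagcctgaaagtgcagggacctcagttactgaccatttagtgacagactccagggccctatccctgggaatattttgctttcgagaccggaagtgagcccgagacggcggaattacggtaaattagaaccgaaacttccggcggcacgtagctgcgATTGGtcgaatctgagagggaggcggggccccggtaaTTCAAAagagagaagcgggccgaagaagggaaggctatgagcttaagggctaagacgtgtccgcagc
Kif23: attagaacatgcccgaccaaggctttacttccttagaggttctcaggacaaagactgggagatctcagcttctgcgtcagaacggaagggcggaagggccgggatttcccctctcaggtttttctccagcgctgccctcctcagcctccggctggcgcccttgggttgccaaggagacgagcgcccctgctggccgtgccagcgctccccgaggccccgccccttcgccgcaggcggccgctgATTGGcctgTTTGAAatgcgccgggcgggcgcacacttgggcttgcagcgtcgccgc
Kif4: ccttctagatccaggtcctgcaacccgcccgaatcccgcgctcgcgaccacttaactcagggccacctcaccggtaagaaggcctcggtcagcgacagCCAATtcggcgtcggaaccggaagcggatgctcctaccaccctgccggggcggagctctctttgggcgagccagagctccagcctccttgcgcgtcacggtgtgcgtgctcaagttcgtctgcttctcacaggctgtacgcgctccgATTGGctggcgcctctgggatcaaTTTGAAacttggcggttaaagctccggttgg
Kifc1: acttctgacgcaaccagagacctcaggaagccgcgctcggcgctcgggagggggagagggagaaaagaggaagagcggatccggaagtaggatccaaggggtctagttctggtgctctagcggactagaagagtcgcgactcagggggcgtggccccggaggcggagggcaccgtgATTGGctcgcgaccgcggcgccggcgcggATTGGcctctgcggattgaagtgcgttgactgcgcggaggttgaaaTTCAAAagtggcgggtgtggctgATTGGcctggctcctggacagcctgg

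Tubulins are encoded by close paralogs that can share reads, and the authors counted unique hits, so the levels of single isotypes are uncertain. Of 13 tested tubulins 1 fell and none rose by edgeR, or 7.69% called beside 26.8% of all tested genes, and 3 had an unadjusted p under 0.05. DESeq2 called 3 lower and 0 higher, beside 2444 lower and 2171 higher of 14146 genes. The median log2 difference over the 13 was -0.35. Tubb6, a class V beta tubulin abundant in muscle and other non-neuronal cells, ran from 22.8 to 90.3 CPM in Control (median 51.8) and from 23.1 to 50.3 CPM in GWI (median 31.4). Control 6 was the highest, Control 7 and Control 8 lay within the GWI range, and Control 9 lay just below it. The log2 fold change was -0.63 (SE 0.23, adjusted p = 0.0492), and the call was lost in 13 of 17 fits that left out 1 sample (adjusted p up to 0.0995, without Control 6). Without Control 7, Control 8 and Control 9 it was -0.94 (adjusted p = 0.00118). In the covariate fit the sign turned, to 0.26 with an adjusted p of 0.247, where the 10 other settings began at 0.00118.

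Tubb3, the neuronal beta tubulin whose protein marks enteric neurons, ran from 6.13 to 67.0 CPM in Control (median 30.5) and from 11.4 to 44.1 CPM in GWI (median 18.7). It was at 7.73, 9.08 and 6.13 CPM in Control 7, Control 8 and Control 9, below every GWI sample, and at 25.8 CPM or more in the other 6 Control samples. The log2 difference was -0.63 (SE 0.44, adjusted p = 0.283). Without those 3 samples it was -1.12 (adjusted p = 0.00719), and the covariate fit gave 0.96 and no call. The 10 other settings gave adjusted p from 0.00719 to 0.337. Of the 13 tested tubulins 8 were called lower without those 3 samples, beside 3105 of 14231 genes lower. In the covariate fit 0 were lower and 1 was higher, beside 2342 lower and 2073 higher of 14146 genes, and 12 of 13 had positive differences. Tubb4a, Tubb2b and Tuba1a, also enriched in neurons, had log2 differences of -0.65, -0.35 and -0.45 and the same low Control samples. Without Control 7, Control 8 and Control 9 all of them were called lower, at -1.14, -0.73 and -0.88. In the covariate fit their signs turned, to 1.00, 0.61 and 0.84, and none was called.

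The tubulins of most cells were the bulk of the pool. Per kilobase Tubb4b was the most abundant beta tubulin, at a mean of 210 CPM per kb, and Tuba1b the most abundant alpha tubulin, at 85.2 CPM per kb. Tubb4b ran from 233 to 560 CPM in Control (median 443) and from 381 to 567 CPM in GWI (median 442), with a log2 difference of 0.09 (SE 0.16, adjusted p = 0.695). Tuba1b ran from 90.3 to 251 CPM in Control (median 187) and from 114 to 160 CPM in GWI (median 135). Of the Control samples all but Control 2, Control 7 and Control 9 lay above every GWI sample. Tuba1b differed by -0.42 (SE 0.15, adjusted p = 0.0530) and was called lower without Control 9, at -0.49 (adjusted p = 0.00415), and without Control 7, at -0.46 (adjusted p = 0.0404). The 10 other settings gave adjusted p from 0.00127 to 0.737. Tuba1b and Tubb4b overlap Gm41396 and Fam166a on the opposite strand.

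The makeup of the tubulin pool was compared as shares per kilobase. Tuba4a, an alpha tubulin made without the terminal tyrosine, was 11.3% ± 1.46 (SD, n = 9) of alpha tubulin in Control and 16.7% ± 1.86 (SD, n = 8) in GWI; the lowest GWI sample lay just under the highest Control sample, both at 13.5%. Tuba4a overlaps exons of Stk16 on the opposite strand. Tuba1b was 43.7% ± 7.14 and 37.4% ± 4.22, and Tuba1c 16.8% ± 1.92 and 19.8% ± 3.25. Among beta tubulins Tubb4b was 56.9% ± 5.62 in Control and 62.2% ± 4.65 in GWI, Tubb5 18.8% ± 2.88 and 15.6% ± 2.71, and Tubb3 4.40% ± 2.25 and 3.38% ± 1.57. The ranges of these isotypes overlapped between the groups, and the shares were not tested.

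The sum over all tubulins was steadier in GWI than in Control. It ran from 619 CPM in Control 9 to 1889 CPM in Control 4, and from 1091 to 1331 CPM in GWI. Gamma tubulin starts new microtubules, and its more abundant gene per kilobase, Tubg1, was at 7.67 to 19.4 CPM in Control (median 15.4) and 14.3 to 17.1 CPM in GWI (median 15.9), with a log2 difference of 0.12 (SE 0.13, adjusted p = 0.528). The lowest Tubg1 level was again that of Control 9, without which the log2 difference was 0.04 (adjusted p = 0.729). The other gamma tubulin, Tubg2, ran from 1.55 to 5.62 CPM in Control (median 3.95) and from 1.45 to 2.96 CPM in GWI (median 2.25), and its lowest Control samples were Control 7, Control 8 and Control 9. Tubg2 differed by -0.66 (SE 0.27, adjusted p = 0.0722) and was not called by edgeR, while DESeq2 called it lower. It was called lower in each of the fits without Control 7, without Control 8 and without Control 9 (-0.74, adjusted p = 0.0321 for the last), and at -1.02 (adjusted p = 0.000928) without all 3, but not without Control 5 and Control 7 (adjusted p = 0.0640). The covariate fit gave 0.26 (adjusted p = 0.454).

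Further genes of the microtubule system are given for their single values, as their called shares lie beside 26.8% of all tested genes. Of 16 tested genes listed as kinesin adaptors 2 rose and 1 fell (18.8%). Clstn1 (calsyntenin, a receptor for kinesin light chains) rose with a log2 fold change of 0.56 (SE 0.13, adjusted p = 0.0065), from 182 to 268 CPM on average, and all 8 GWI samples were above all Control samples. Rhot2, which links mitochondria to motors, rose at 0.61 (SE 0.12, adjusted p = 0.00311). The listed gene that fell was Nlgn1, a synaptic cell adhesion protein and not itself an adaptor, at -0.85 (SE 0.24, adjusted p = 0.0169). Nlgn1 was not called in 2 of 27 other fits, and was at -0.32 (adjusted p = 0.401) in the covariate fit.

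Of 25 microtubule-associated proteins 3 rose and 3 fell, 24% beside 26.8% of all tested genes. Map7, which recruits kinesin-1 to microtubules, averaged 84.7 ± 9.07 CPM (SD, n = 9) in Control and 130 ± 11.03 (SD, n = 8) in GWI, and its groups did not overlap. Its log2 fold change was 0.62 (SE 0.08, adjusted p = 0.000198) and it was called in all 27 other fits. Camsap3, which holds minus ends at the apical side of epithelial cells, rose at 0.81 (SE 0.14, adjusted p = 0.00102), while its relative Camsap2 fell at -0.67 (SE 0.20, adjusted p = 0.0185). In the covariate fit Camsap2 was at -0.00 and Camsap3 was still called. Clip2 rose at 0.63 (SE 0.13, adjusted p = 0.0026), and Stmn1 (stathmin, which binds free tubulin) fell at -0.56 (SE 0.15, adjusted p = 0.0126), as did Mapre1 (EB1, a plus-end binder) at -0.23 (SE 0.07, adjusted p = 0.0203). Stmn1 lost its call with the replicate block (adjusted p = 0.0562), and Mapre1 in the covariate fit, at -0.17 (adjusted p = 0.167).

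Among 20 tested genes of tubulin folding and modification 2 rose and 4 fell, 30% beside 26.8% of all tested genes. The folding cofactor Tbcd rose at 0.30 (SE 0.08, adjusted p = 0.0133) and Tbca, which binds free beta tubulin, fell at -0.62 (SE 0.15, adjusted p = 0.00856). Ttll12 rose at 0.57 (SE 0.17, adjusted p = 0.018), and the polyglutamylase Ttll7 fell at -0.78 (SE 0.24, adjusted p = 0.0237), as did Svbp, partner of the enzymes that remove the terminal tyrosine, at -0.39 (SE 0.12, adjusted p = 0.0241). Ttll7 was not called in 3 of 27 other fits and was at -0.24 (adjusted p = 0.425) in the covariate fit, and Svbp was not called in 5 (adjusted p up to 0.180). Tbcd lost its call in 2 of these fits (adjusted p up to 0.0748) and Ttll12 in 1 (adjusted p = 0.0514).

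For the opposing motor, dynein with dynactin, 1 of 23 rose and 3 fell, 17.4% beside 26.8% of all tested genes. Actr1b of the dynactin filament rose at 0.33 (SE 0.09, adjusted p = 0.015). The cargo adaptor Bicd1 fell at -0.55 (SE 0.14, adjusted p = 0.0112), and so did the light chains Dynlrb1 and Dynll1, at -0.44 (SE 0.12, adjusted p = 0.0139) and -0.44 (SE 0.13, adjusted p = 0.018). In the covariate fit Dynll1 was at -0.12 (adjusted p = 0.468), and Actr1b was not called in 2 of 27 other fits (adjusted p up to 0.0556). Of 11 genes of the gamma-tubulin ring complex Mzt2 fell (9.09%), at -0.28 (SE 0.10, adjusted p = 0.0444), and the others were not called; that call was lost in 17 of 27 other fits.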

How the data were processed

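The authors deposited raw counts per gene symbol, 1 column per sample, made by poly(A)-selected paired-end sequencing, Trimmomatic 0.36, STAR 2.5.2b on GRCm38 and featureCounts of Subread 1.5.2; annotation release and strand setting are not given in the sources used here. Columns were matched to samples by their descriptions. Counts were filtered with filterByExpr, scaled by TMM and tested with edgeR 4.0.16 in R 4.3.3 (quasi-likelihood test, robust, condition only), with Benjamini-Hochberg adjustment over all 14146 tested genes. DESeq2 1.42.0 served as an alternative. Standard errors are the log2 fold change over the square root of F. IDs, positions, overlaps and exon lengths came from GENCODE M21 for GRCm38, and promoters from RefSeq. Of 23719 rows 94 share a symbol with another row, none of them a member. Members and lists were chosen with earlier results of these data known. Named were Kif21b, Kif21a and Tubb3; per role up to 6 called members per direction by p and the most abundant per kilobase; per pathway list up to 3 called per direction; per marker list the most abundant gene. Kif1a, Kif5a, Kif5c, Kif3a, Kif3c, Klc1, the other mitotic motors and other tubulins were named after their values were seen. Some sample names share an undefined first part; each such set lies within 1 group, and the sets were not modelled. The labels give both groups the same treatment text; groups follow the treatment label and title.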

Additional observations from a re-analysis of the deposited data

Results flagged for a closer look

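For each named member the highest or lowest sample of a group was set against the gap to its neighbour as a share of the group's range. Of 42 groups checked 10 held a sample that stood apart, where chance flags about 5% of separate groups; these groups share the same 17 samples, so that rate is no baseline for them, and 1 is of Kif21b, which led to the choice of the family. In 6 of these the sample was Control 1, far above the other Control samples: Kif21b at 39.5 CPM (next 24.98), Kif13b at 74.2 (next 24.3), Kif16b at 66.5 (next 55.1), Kifc3 at 44.1 (next 28.7), Kif1c at 593 (next 412) and Klc4 at 220 (next 140). All 6 of these genes had positive differences in GWI. Control 9 stood above the other Control samples for Kif5b at 635 CPM (next 418) and for Kif2a at 57.2 (next 41.6). Control 6, with the highest smooth muscle marker sum, stood above them for Klc3 at 6.02 CPM (next 3.35) and Kif7 at 3.01 (next 1.97). The part of tissue makeup in these levels was not tested.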

How the results depend on the processing

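Higher members numbered 7, or 6 without Kif21b, and lower members 5 with all samples, beside 1889 higher and 1903 lower of 14146 genes. Kif21b is in every count of higher members in this section, and its own call is not read as a test. Under DESeq2's Wald test lower members numbered 8, with library size alone 3 and with no filter on low counts 2. Beside these, 2444 and 1851 of 14146 genes and 1674 of 19717 genes were lower. With the muscle score as a covariate higher members numbered 11, beside 2073 of 14146 genes. The median of transport motors was then 0.63, that of tubulins 0.41 and that of mitotic motors -0.60, and Tubb6 turned to 0.26. The score nearly separates the groups, so this fit cannot tell group from makeup, and the cause was not tested. Leaving out Control 1 and Control 9 gave 12 higher and 10 lower, beside 2786 and 2778 of 14161 genes. Leaving out Control 5 and Control 7 gave 3 lower, beside 1429 of 14139 genes. Leaving out Control 7, Control 8 and Control 9, chosen after seeing the data, gave 20 lower, beside 3105 of 14231 genes, and a transport median of -0.18. Leaving out each sample in turn gave 5 to 10 higher and 2 to 8 lower, beside 1472 to 2523 and 1309 to 2295 of all tested genes. DESeq2's size factors and a minimum of 10 counts kept both counts within 1.5 times. Kifc2, Kif27 and Kif13b were called in all of these fits. Replicate numbers did not pair samples (same-numbered correlations from -0.51 to 0.11, 1 of 8 over 0.1). With the replicate number as a block 5 members were higher and 1 lower, Tuba1b, beside 1415 and 826 of 14146 genes. Klc3, Kif7, Kif5b, Kifap3 and Tubb6 lost their lower calls (adjusted p from 0.0672 to 0.0947), and Kifc3 and Kif3b lost their higher calls.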
